A study of Mus musculus with 6 samples.

Results

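S100 proteins, annexins and galectins that mark effector T cells were compared between a regulatory T cell clone and an OT-1 T cell clone of the mouse. Of the 10 genes in question (S100a4, S100a6, S100a10, S100a11, S100a13, Anxa1, Anxa2, Anxa6, Lgals1 and Lgals3), 9 were represented by probe sets that the array annotation assigns to a single gene, out of 18193 such genes. They had 18 such probe sets out of 34945. S100a11 had 1 probe set that is shared with other listed symbols, and it is not reported. The members were chosen by name, with earlier results of these arrays known.

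The regulatory cells are labelled CD8aa Tregs and titled 2D11 (3 arrays, replicates 1, 2 and 4). They were set against cells labelled OT-1 CD8aa+TCRab+ T cells and titled OvacD8 (3 arrays, replicates 1, 2 and 3). The series title calls the regulatory cells Qa-1-restricted, Qa-1 being a class Ib relative of the classical MHC molecules. OT-1 cells carry a transgenic T cell receptor for an ovalbumin peptide. All 6 samples are labelled as a T cell clone, and both lines were cultured with their own antigen, antigen-presenting cells and IL-2. The labels give no strain, sex or age, and nothing in them tells if replicates came from different cultures. Each group may be a single clone, so the p-values cover only the spread among these samples, which could be technical, and differences may belong to these clones.

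S100 proteins are small proteins with calcium-binding EF-hands that mostly pair with themselves and bind target proteins when calcium rises. Annexins bind acidic phospholipids of membranes in the presence of calcium, and S100a10, which has lost calcium binding, joins Anxa2 in a complex under the plasma membrane. Galectins bind galactose-containing sugars on glycoproteins, inside and outside the cell. Many of these genes are raised when naive T cells become effector or memory cells.

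Anxa2 was far lower in CD8aa Tregs on 1 of its 3 probe sets, by a log2 difference of -8.07, and S100a6 was lower by -0.88. S100a4 was higher by 0.54, 1 of 3 probe sets of S100a10 by 1.02, and 1 of 4 probe sets of Anxa6 by 0.53. Lgals1, Lgals3, Anxa1 and S100a13 did not pass the test on the 6 arrays. Of the 18 probe sets, 3 were thus higher, 2 were lower and 13 did not pass, at an adjusted p under 0.05 (limma, Benjamini-Hochberg over all 45037 probe sets that are not array controls). Over all these probe sets, 4.06% passed, 2.00% as higher and 2.05% as lower. At an unadjusted p under 0.05 the member counts were 4 higher and 2 lower of 18, against 4163 higher and 3061 lower of all 45037. The median difference of the 18 was -0.02, against 0.008 over all probe sets. The groups did not overlap in 8 of the 18, 4 higher and 4 lower, against 20.3% of all probe sets, 11.7% higher and 8.54% lower. The members also varied more than most probe sets, with a median span over the arrays of 0.71, against 0.28 over all. This was not particular to them, as the median span was 0.64 for other annexin genes and 0.83 for T cell markers. It was 0.05 for other S100 genes and 0.29 for other galectin genes.

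All values are on the log2 scale and relative to the median of the same probe set over the 6 arrays, which the deposited table had removed. A value of 0 is thus the middle of the 6 arrays and says nothing about whether the gene was bright or at background, and levels of different genes cannot be compared. Differences are CD8aa Treg minus OT-1. In bulk RNA, fewer cells that express a gene and less of its RNA per cell cannot be told apart.

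**Figure D1:**
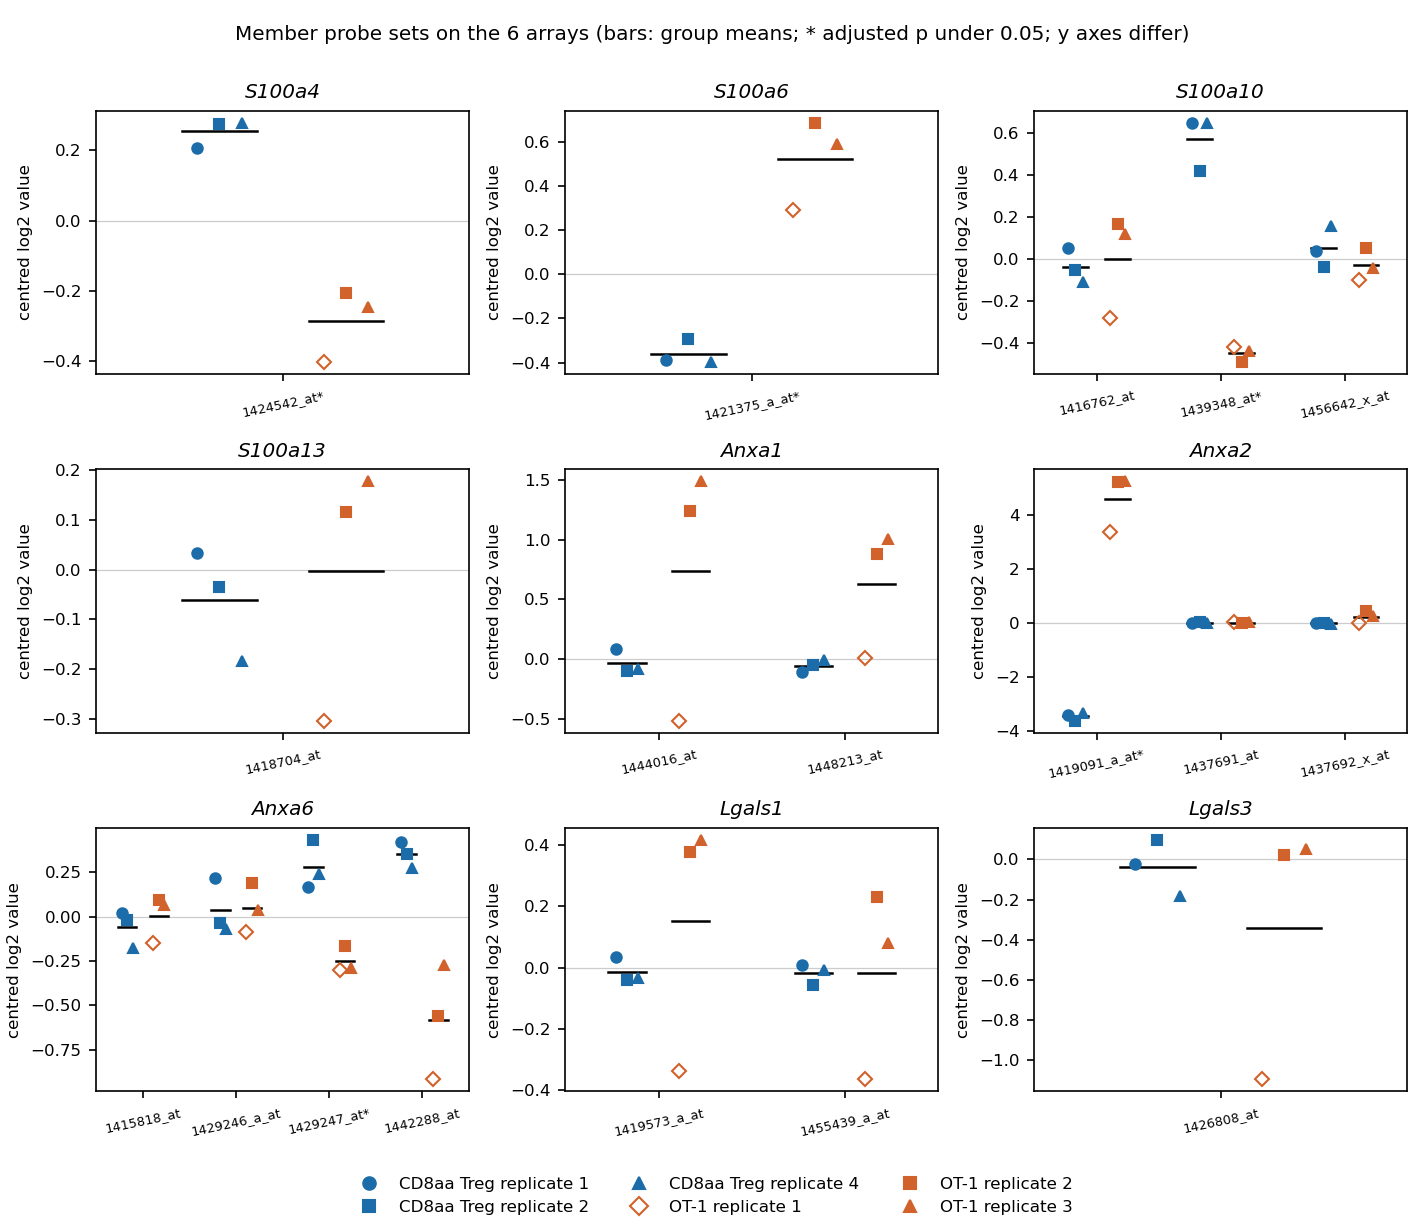
Centred log2 values (y axis, its range differing between panels) of each probe set of the 9 measured genes on each array, CD8aa Tregs left and OT-1 right of each pair, with bars at the group means and asterisks where the adjusted p was under 0.05. The 3 CD8aa Treg arrays lie at -3.64 to -3.34 and the OT-1 arrays at 3.34 to 5.24 for Anxa2 1419091_a_at, and OT-1 replicate 1 (open diamonds) often lies below the other OT-1 arrays.

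The OT-1 arrays were not alike. Over the 29526 probe sets that spanned at least 0.1, the correlation (r) of OT-1 replicates 2 and 3 was 0.855, and that of OT-1 replicate 1 with these arrays was 0.298 and 0.353. Among the CD8aa Treg arrays it was 0.614 to 0.671. OT-1 replicate 1 correlated with the CD8aa Treg arrays at -0.62 to -0.44, and OT-1 replicates 2 and 3 with them at -0.65 to -0.57. These are correlations across probe sets, which are not independent. The values are centred on the median of the 6 arrays, so r measures shared deviation from it. The mean of the poly-A spike-in controls was -0.09 to 0.73 on the CD8aa Treg arrays, against 0.44 on OT-1 replicate 1 and -1.41 and -2.13 on OT-1 replicates 2 and 3. The 17 probe sets of 11 myeloid and dendritic cell markers summed to -1.32 to 0.92 on the CD8aa Treg arrays, against 10.26 on OT-1 replicate 1 and 1.96 and 1.21 on OT-1 replicates 2 and 3. On OT-1 replicate 1, 1 probe set of Csf1r, the M-CSF receptor, stood at 2.92 and its others at 0.15 and 0.43. Mpeg1 stood at 3.27 there and Lyz2 (lysozyme) at 2.70. Lyz2 stood at -0.49 to 0.59 in CD8aa Tregs, and at -1.91 and -2.825 on OT-1 replicates 2 and 3. Adgre1, Itgam, Flt3, Xcr1, Fcgr1 and Zbtb46 lay between 0.005 and 0.013 on OT-1 replicate 1. Apart from Lyz2, all myeloid markers given here were named after their values were seen. Cd68 was above the CD8aa Tregs on OT-1 replicate 1 but higher still on the other OT-1 arrays. It stood at -0.71 to -0.48 in CD8aa Tregs, against 0.48, 3.34 and 3.44 on OT-1 replicates 1, 2 and 3. Cd14 had the same order, at -0.35 to -0.20 in CD8aa Tregs, against 0.20, 0.66 and 0.75 on these OT-1 arrays. No myeloid marker passed the test between the groups by limma (0 higher and 2 lower at an unadjusted p under 0.05). The fit that leaves out OT-1 replicate 1 called 0 of the list higher and 2 lower, Cd68 by -3.96 (adjusted p = 0.000634) and Cd14 by -0.98 (adjusted p = 0.00408). The 7 B cell marker probe sets, 6 of which spanned less than 0.1, summed to -0.04 to 0.16 in CD8aa Tregs and to -0.17 to 0.05 in OT-1. The controls place the arrays on a high side (CD8aa Tregs and OT-1 replicate 1) and a low side (OT-1 replicates 2 and 3), called the poly-A split here. A fit with this split as a term sets the CD8aa Tregs against the single array OT-1 replicate 1, so its spread in OT-1 is assumed and not measured. Between the 3′ and 5′ control probe sets of Actb, a measure of RNA quality, the centred difference was -0.12 to 0.19 in CD8aa Tregs, against 0.09 on OT-1 replicate 1 and -0.38 and -0.32 on OT-1 replicates 2 and 3. For Gapdh it was -0.145 to 0.27 in CD8aa Tregs, against -0.02, -0.14 and -0.22 on OT-1 replicates 1, 2 and 3. The part of this split, of RNA quality and of other cell types in the results below was not tested. Of 17 probe sets of 9 T cell markers, 1 was higher and 3 were lower. Cd8b1, which encodes the beta chain of CD8, differed by -2.36 ± 0.11 (SE, n = 3 per group; adjusted p = 0.00142), and Cd247, the CD3 zeta chain, was lower on 2 of 4 probe sets by -1.09 and -1.25. Cd8a was higher on 1 of 5 by 0.85 (adjusted p = 0.00814; adjusted p = 0.0515 without OT-1 replicate 2), with 1440811_x_at at -2.40 (adjusted p = 0.0636). Cd3e differed by 0.08 (adjusted p = 0.798) and the Cd4 probe sets by 0.006 and 0.04 (adjusted p = 0.942 and 0.878), and whether any of them lay at background cannot be read from centred values.

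S100a4 and S100a6 are close neighbours in the S100 cluster of chromosome 3, separated by S100a5, and they differed in opposite directions. S100a4 binds non-muscle myosin and is linked to cell motility. Its probe set stood at 0.21, 0.28 and 0.28 on CD8aa Treg replicates 1, 2 and 4, against -0.40, -0.21 and -0.25 on OT-1 replicates 1, 2 and 3. All CD8aa Treg arrays lay above all OT-1 arrays, and OT-1 replicate 1 was the lowest. The difference was 0.54 ± 0.06 (SE, n = 3 per group; adjusted p = 0.0167), 1.45-fold. S100a6, or calcyclin, is a protein of proliferating cells that binds the ubiquitin ligase adaptor Cacybp. It stood at -0.39, -0.29 and -0.40 on CD8aa Treg replicates 1, 2 and 4, against 0.29, 0.69 and 0.59 on OT-1 replicates 1, 2 and 3. All CD8aa Treg arrays lay below all OT-1 arrays, with OT-1 replicate 1 the nearest to them. The difference was -0.88 ± 0.11 (adjusted p = 0.0247), 1.84-fold lower in CD8aa Tregs. Both calls were near the threshold. S100a4 did not pass in 4 of the 6 fits that leave out 1 array (without any of CD8aa Treg replicates 1, 2 and 4 or OT-1 replicate 3; highest adjusted p = 0.0777). S100a6 passed in 1 of these 6 fits, without OT-1 replicate 1 (-0.998, adjusted p = 0.00324), and reached an adjusted p of 0.103 without CD8aa Treg replicate 1. Their differences stayed between 0.48 and 0.58 for S100a4 and between -0.998 and -0.80 for S100a6.

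The 250 bases before the start of these 2 genes are shown because the neighbours moved in opposite directions. They are RefSeq sequences of build GRCm38.p6, on the plus strand, at chr3:90603520-90603769 for S100a4 and chr3:90612644-90612893 for S100a6, written 5′ to 3′. Capitals mark any match to TATAA, to the AP-1 motif TGAGTCA or TGACTCA, or to the GC box GGGCGG, each searched on both strands.
S100a4: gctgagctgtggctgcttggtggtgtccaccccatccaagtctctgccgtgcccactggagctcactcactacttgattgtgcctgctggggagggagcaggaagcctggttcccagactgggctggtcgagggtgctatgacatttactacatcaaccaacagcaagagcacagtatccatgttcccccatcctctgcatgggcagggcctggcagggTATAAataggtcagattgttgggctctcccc
S100a6: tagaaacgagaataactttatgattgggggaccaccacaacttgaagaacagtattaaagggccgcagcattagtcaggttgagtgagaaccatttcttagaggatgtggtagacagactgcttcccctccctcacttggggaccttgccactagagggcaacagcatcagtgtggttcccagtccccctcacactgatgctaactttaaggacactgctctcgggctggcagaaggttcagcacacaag
S100a4 held 1 TATAA, 31 to 27 bases before the start, and S100a6 held none of the 3 motifs. Among 32851 RefSeq promoter windows of this length, 22.8% held TATAA on either strand, 4.46% an AP-1 motif and 32.7% a GC box. Neither window was rich in CG pairs, with 2 in S100a4 and 3 in S100a6, against a median of 6 over all windows. Of the 10 genes, 7 were in the promoter table.

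S100a10, the partner of Anxa2, had 3 probe sets that disagreed. On 1439348_at it stood at 0.65, 0.42 and 0.65 on CD8aa Treg replicates 1, 2 and 4, against -0.42, -0.49 and -0.44 on OT-1 replicates 1, 2 and 3. The groups were well apart, and the OT-1 arrays lay within 0.07 of each other. The difference was 1.02 ± 0.07 (adjusted p = 0.00471), 2.03-fold higher in CD8aa Tregs, and it passed in all 6 fits that leave out 1 array (0.98 to 1.09). The other probe sets of S100a10 differed by -0.04 (95% interval -0.39 to 0.32; adjusted p = 0.942) and 0.08 (-0.09 to 0.26; adjusted p = 0.737), and their groups overlapped. As the mean of its 3 probe sets, S100a10 was higher by 0.35 (adjusted p = 0.0436 over 18193 genes). None of the 3 probe sets was lower in CD8aa Tregs by the test, unlike Anxa2. S100a13, which helps to release proteins that lack a signal peptide, stood at 0.03, -0.03 and -0.18 on CD8aa Treg replicates 1, 2 and 4, against -0.30, 0.12 and 0.18 on OT-1 replicates 1, 2 and 3. The CD8aa Treg arrays lay between OT-1 replicate 1 and the other OT-1 arrays. The difference was -0.06 (95% interval -0.45 to 0.33; adjusted p = 0.942).

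Anxa2 links membranes to the actin cytoskeleton and, with S100a10, binds plasminogen at the cell surface. On 1419091_a_at it stood at -3.44, -3.64 and -3.34 on CD8aa Treg replicates 1, 2 and 4, against 3.34, 5.19 and 5.24 on OT-1 replicates 1, 2 and 3. The CD8aa Treg arrays lay within 0.30 of each other, and the nearest OT-1 array was higher by 6.82 than the CD8aa Treg mean. The difference of -8.07 ± 0.57 (95% interval -9.54 to -6.59; adjusted p = 0.00464) is a 268-fold lower signal in CD8aa Tregs, and was the 7th largest among the 925 probe sets that were lower. It passed in all 6 fits that leave out 1 array (-8.69 to -7.74; highest adjusted p = 0.0329). Against OT-1 replicate 1 alone, as in the fit with the poly-A split, it was -6.82. The other probe sets of Anxa2 did not show this difference. Probe set 1437691_at spanned 0.05 over all 6 arrays. Probe set 1437692_x_at stood at -0.02, -0.002 and -0.04 on CD8aa Treg replicates 1, 2 and 4, against 0.002, 0.44 and 0.23 on OT-1 replicates 1, 2 and 3 (difference -0.24, 95% interval -0.54 to 0.06; adjusted p = 0.428). Since levels were removed, these 2 probe sets may lie at background, and the mean of the 3 was -2.77 (adjusted p = 0.00447 over genes).

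The 250 bases before the start of Anxa2, the member with the largest difference, lie at chr9:69453433-69453682 on the plus strand of GRCm38.p6 (RefSeq). Capitals mark the same motifs.
Anxa2: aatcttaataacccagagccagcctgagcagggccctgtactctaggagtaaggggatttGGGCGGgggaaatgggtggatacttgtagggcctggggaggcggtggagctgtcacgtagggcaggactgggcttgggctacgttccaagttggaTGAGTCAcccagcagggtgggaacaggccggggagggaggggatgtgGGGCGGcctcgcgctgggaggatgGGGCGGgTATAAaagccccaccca
The window held 3 GC boxes, an AP-1 motif TGAGTCA 95 to 89 bases before the start and a TATAA 17 to 13 bases before it, with 9 CG pairs. Of the 7 members with a promoter window, Anxa2 and S100a11 held an AP-1 motif. A match of letters is a description and not a binding site.

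Anxa1, a glucocorticoid-induced protein that signals through formyl peptide receptors, separated the OT-1 arrays more than the groups. Probe set 1448213_at stood at -0.11, -0.05 and -0.005 on CD8aa Treg replicates 1, 2 and 4, against 0.005, 0.88 and 1.01 on OT-1 replicates 1, 2 and 3. Probe set 1444016_at stood at 0.08, -0.10 and -0.08 on CD8aa Treg replicates 1, 2 and 4, against -0.52, 1.24 and 1.49 on OT-1 replicates 1, 2 and 3. In both, OT-1 replicates 2 and 3 were high and OT-1 replicate 1 lay with or below the CD8aa Tregs. The differences were -0.69 (95% interval -1.43 to 0.06; adjusted p = 0.352) and -0.77 (-2.27 to 0.72; adjusted p = 0.7). Without OT-1 replicate 1 they were -1.002 (adjusted p = 0.00363) and -1.40 (adjusted p = 0.00704). In that fit the high and low sides of the poly-A controls are the groups themselves, and they cannot be told apart.

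Anxa6, a large annexin of endosomal and plasma membranes, had 4 probe sets, of which 2 were higher in CD8aa Tregs without overlap between the groups. Probe set 1429247_at stood at 0.16, 0.43 and 0.24 on CD8aa Treg replicates 1, 2 and 4, against -0.30, -0.16 and -0.29 on OT-1 replicates 1, 2 and 3 (difference 0.53 ± 0.08, adjusted p = 0.0428). This call ended in every one of the 6 fits that leave out 1 array (0.45 to 0.59; highest adjusted p = 0.149 without OT-1 replicate 3). It also ended with the poly-A split in the model (0.58, adjusted p = 0.116). Probe set 1442288_at stood at 0.42, 0.35 and 0.27 on CD8aa Treg replicates 1, 2 and 4, against -0.92, -0.56 and -0.27 on OT-1 replicates 1, 2 and 3. Its difference of 0.93 ± 0.17 did not pass (95% interval 0.48 to 1.38; adjusted p = 0.0648). It passed without OT-1 replicate 1 at 0.77 (adjusted p = 0.027). With the poly-A split in the model its difference was larger, at 1.27. The remaining probe sets of Anxa6 differed by -0.06 (adjusted p = 0.874) and -0.01 (adjusted p = 0.971), with overlapping groups. The mean of the 4 was 0.35 (adjusted p = 0.0965 over genes).

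**Figure D2:**
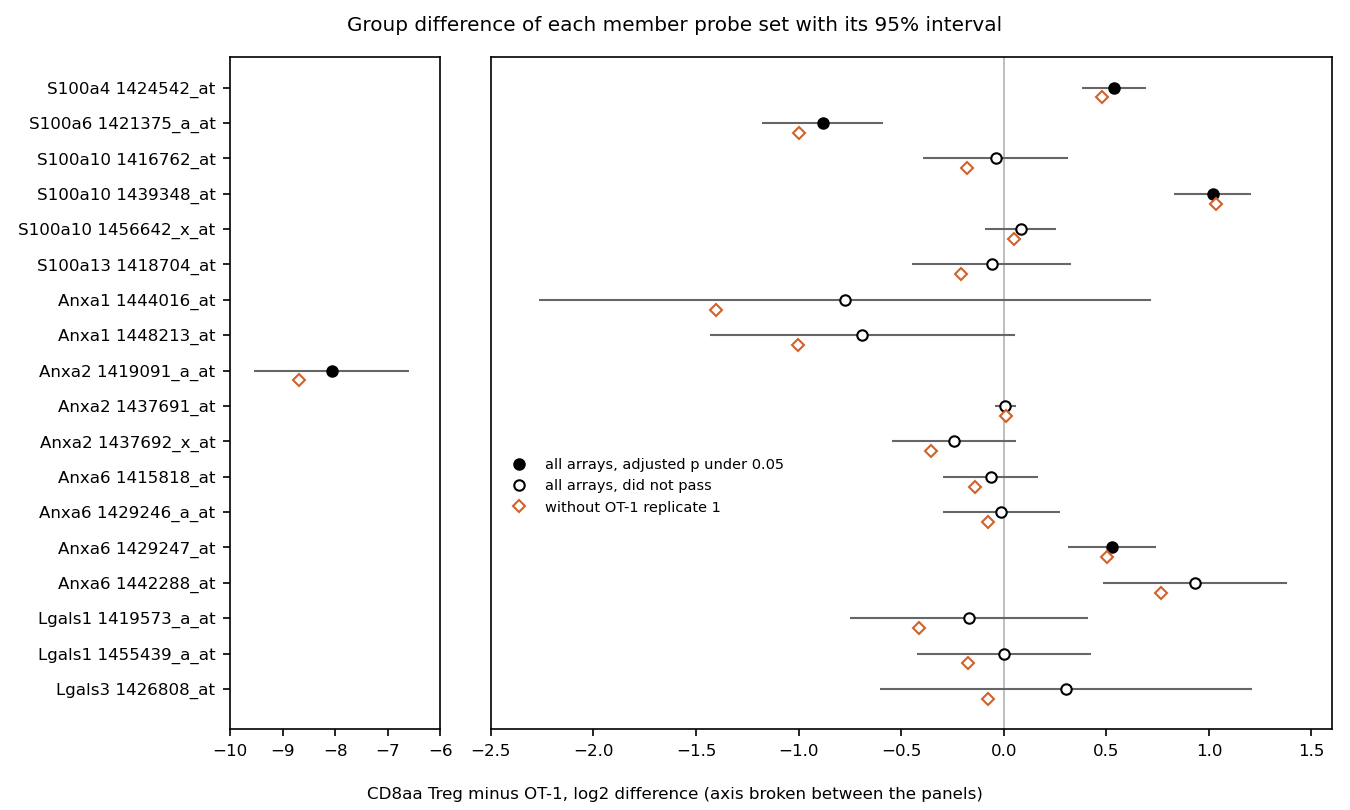
Log2 difference, CD8aa Treg minus OT-1 (x axis, broken between the panels), of each member probe set (rows), with 95% intervals as lines, filled circles where the adjusted p was under 0.05, and open diamonds for the fit without OT-1 replicate 1. Anxa2 1419091_a_at lies at -8.07, far from the others, and the difference of Anxa1 1444016_at is -0.77 over all arrays and -1.40 without OT-1 replicate 1.

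Neither galectin among the members passed the test. Lgals1, a secreted galectin that can restrain or kill activated T cells, stood on 1419573_a_at at 0.03, -0.04 and -0.03 on CD8aa Treg replicates 1, 2 and 4, against -0.34, 0.38 and 0.42 on OT-1 replicates 1, 2 and 3. The CD8aa Treg arrays lay together, between OT-1 replicate 1 below and OT-1 replicates 2 and 3 above. The difference was -0.17 (95% interval -0.75 to 0.41; adjusted p = 0.86). It was -0.41 without OT-1 replicate 1 (adjusted p = 0.0085) and 0.32 with the poly-A split in the model (adjusted p = 0.0397), so the direction depended on which OT-1 arrays were taken. On 1455439_a_at it stood at 0.01, -0.06 and -0.01 on CD8aa Treg replicates 1, 2 and 4, against -0.37, 0.23 and 0.08 on OT-1 replicates 1, 2 and 3 (difference -0.001, 95% interval -0.43 to 0.42; adjusted p = 0.999). Lgals3, which forms lattices with branched sugars of surface glycoproteins, stood at -0.02, 0.10 and -0.18 on CD8aa Treg replicates 1, 2 and 4, against -1.09, 0.02 and 0.05 on OT-1 replicates 1, 2 and 3. The array that stood apart was OT-1 replicate 1, and the other 5 lay between -0.18 and 0.10. The difference was 0.30 (95% interval -0.60 to 1.21; adjusted p = 0.818). It was -0.07 without OT-1 replicate 1 (adjusted p = 0.759) and 1.06 with the poly-A split in the model (adjusted p = 0.0268), a fit in which OT-1 replicate 1 is the single OT-1 array on the high side of the split.

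OT-1 replicate 1 lay below both other OT-1 arrays in 16 of the 18 member probe sets and was the lowest of all 6 arrays in 11. In 5 of these 11, OT-1 replicates 2 and 3 lay above every CD8aa Treg array, so that the OT-1 arrays lay on both sides of the CD8aa Tregs. The matching counts over all probe sets were not taken, so these positions need not be particular to the members. The OT-1 standard deviation was the larger one in 13 of the 18 probe sets, against 61.7% of all probe sets, and reached 1.10, against at most 0.16 in CD8aa Tregs. Without OT-1 replicate 1, 3 member probe sets were higher in CD8aa Tregs and 5 were lower (S100a4, S100a10 and Anxa6 1442288_at higher, and S100a6, Anxa2, both of Anxa1 and 1 of Lgals1 lower). In that fit 4.80% of all probe sets were higher and 5.80% lower.

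**Figure D3:**
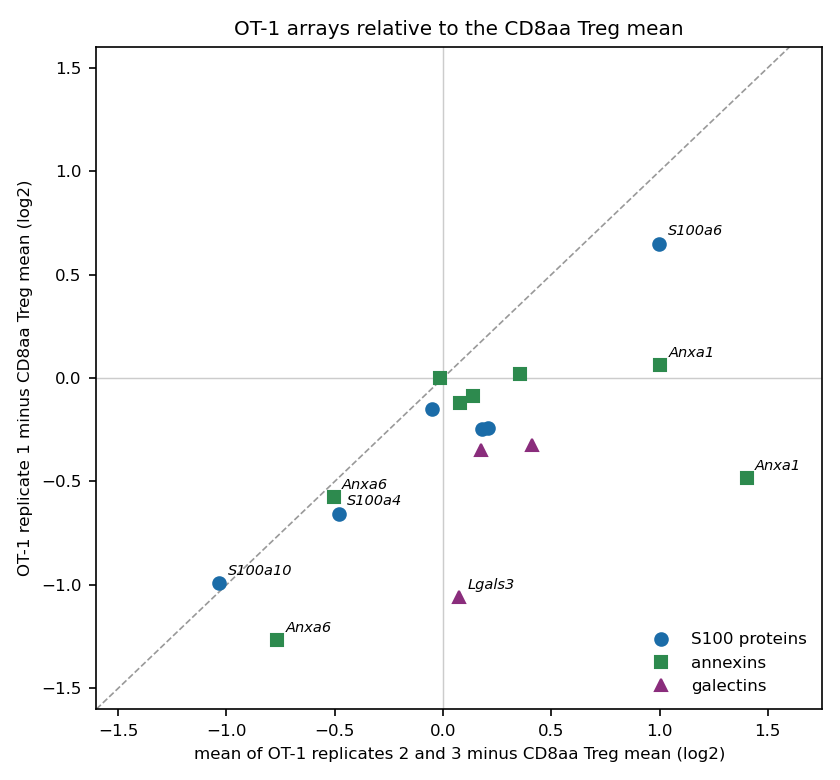
OT-1 replicate 1 minus the CD8aa Treg mean (y axis, log2) against the mean of OT-1 replicates 2 and 3 minus the CD8aa Treg mean (x axis, log2), 1 point per member probe set without Anxa2 1419091_a_at, with a dashed line where both are equal. S100a10 1439348_at (-1.03 on the x axis, -0.99 on the y axis) lies near the line, while Anxa1 1444016_at (1.40 on the x axis, -0.48 on the y axis) and Lgals3 (0.07 and -1.06) lie far below it.

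Other members of the 3 families mostly did not pass the test, which does not show that the groups were alike. Of 12 probe sets of 9 other S100 genes, 0 passed by limma (0 higher and 1 lower at an unadjusted p under 0.05), and 9 spanned less than 0.1. S100a8 and S100a9, the calgranulins of neutrophils and monocytes, were among the 9, with differences of 0.008 and 0.005 (adjusted p = 0.942 for both). S100a1, the first gene of the cluster, was named after its values were seen. Its probe set 1417421_at stood at -0.05, -0.04 and -0.02 on CD8aa Treg replicates 1, 2 and 4, against 0.02, 2.98 and 3.33 on OT-1 replicates 1, 2 and 3. OT-1 replicates 2 and 3 were thus high and OT-1 replicate 1 lay by the CD8aa Tregs on it. The difference of -2.15 did not pass (adjusted p = 0.384). It reached -3.20 without OT-1 replicate 1 (adjusted p = 0.0015). The other probe set of S100a1, 1419814_s_at, stood at -0.82, -0.83 and -0.57 on CD8aa Treg replicates 1, 2 and 4, against 0.57, 2.91 and 3.13 on OT-1 replicates 1, 2 and 3. There OT-1 replicate 1 lay above the CD8aa Tregs too, and the difference was -2.95 (adjusted p = 0.136; unadjusted p = 0.0114). Its next neighbour, S100a13, spanned 0.48 over the arrays.

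Of 14 probe sets of 8 other annexin genes, 0 passed by limma (0 higher and 1 lower at an unadjusted p under 0.05). The fit without OT-1 replicate 1 called 0 of them higher and 4 lower. Anxa5, which binds phosphatidylserine of dying cells, stood at -0.07, -0.02 and 0.02 on CD8aa Treg replicates 1, 2 and 4, against -0.06, 0.56 and 0.70 on OT-1 replicates 1, 2 and 3 (difference -0.42, adjusted p = 0.454). Without OT-1 replicate 1 its difference was -0.65 (adjusted p = 0.00952). Anxa9, also named after its values were seen, showed the pattern of S100a1 1417421_at, at -0.03, -0.02 and -0.03 on CD8aa Treg replicates 1, 2 and 4, against 0.02, 1.77 and 2.06 on OT-1 replicates 1, 2 and 3 (difference -1.31, adjusted p = 0.381). Of 9 probe sets of 6 other galectin genes, 0 were higher and 1 was lower. This was Lgals9, a ligand of the inhibitory receptor Tim-3, at -0.36, -0.85 and -0.79 on CD8aa Treg replicates 1, 2 and 4, against 0.36, 0.63 and 0.68 on OT-1 replicates 1, 2 and 3. The groups did not overlap, and the difference was -1.22 ± 0.17 (adjusted p = 0.029), 2.33-fold lower in CD8aa Tregs. It did not pass in 4 of the 6 fits that leave out 1 array (without CD8aa Treg replicate 2 or 4 or OT-1 replicate 2 or 3; highest adjusted p = 0.124) or with the poly-A split in the model (-1.03, adjusted p = 0.113).

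**Figure D4:**
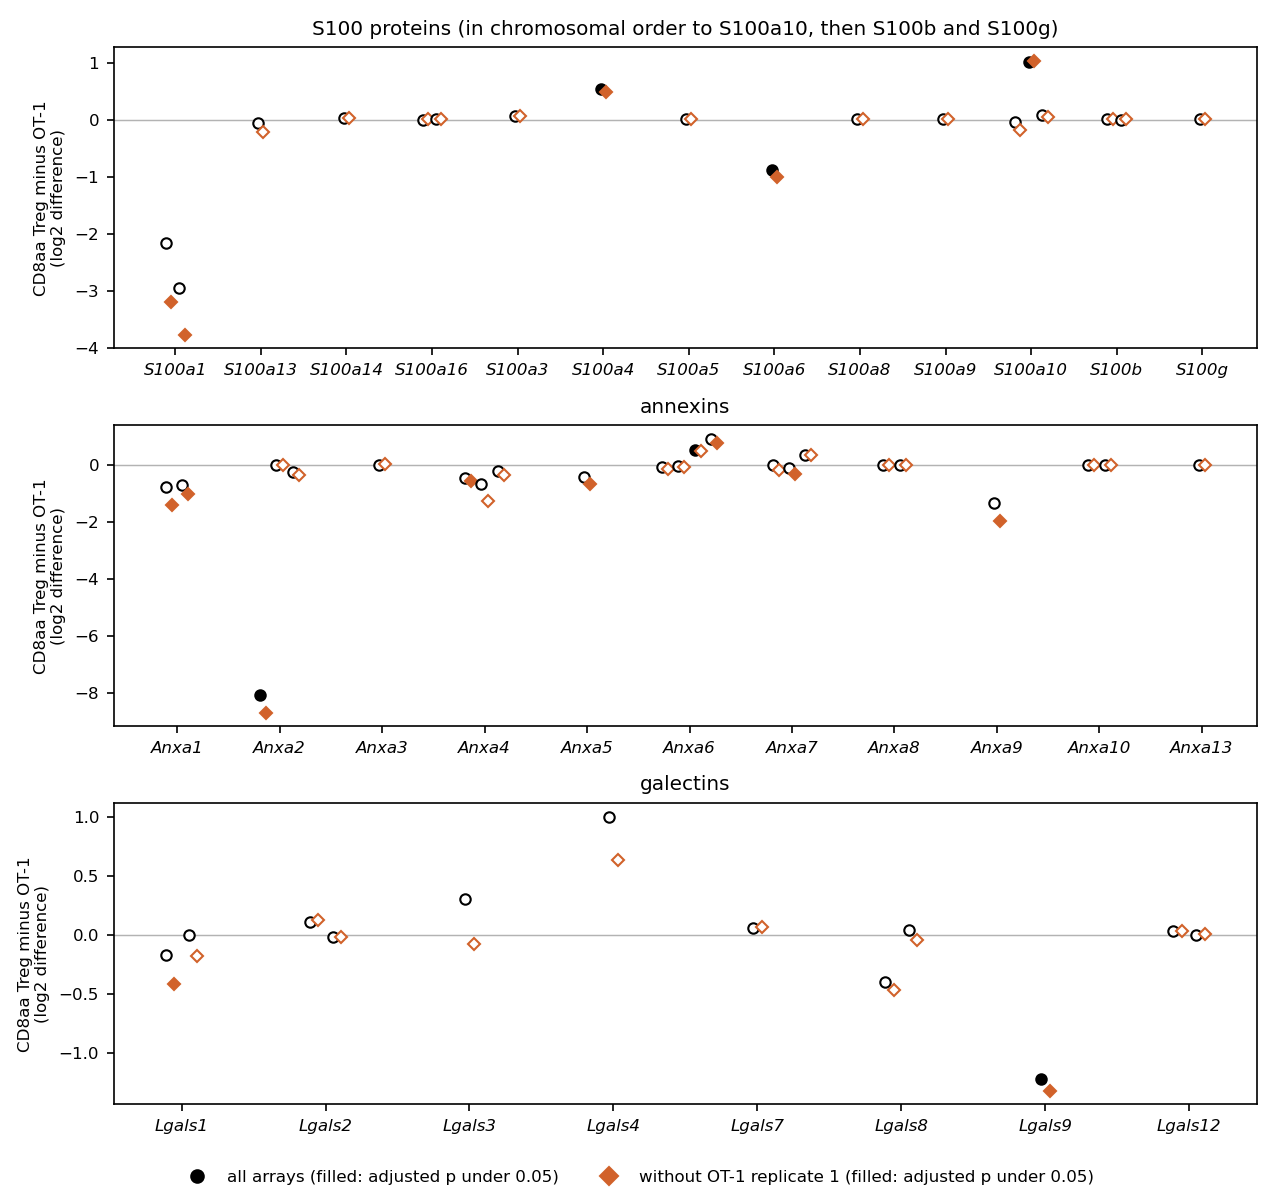
Log2 difference, CD8aa Treg minus OT-1 (y axis), of every probe set of the S100 genes in chromosomal order, of the annexins and of the galectins (x axis), as circles for all arrays and diamonds without OT-1 replicate 1, filled where the adjusted p was under 0.05. Anxa2 stands at -8.07. Probe sets of S100a1, Anxa9, Anxa1, Anxa4, Anxa5, Anxa6, Anxa7 and Lgals1 are filled only in the fit without OT-1 replicate 1. Most other family members lie near 0.

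Of 45 probe sets of 20 binding partners and receptors of these proteins, 0 passed by limma (3 higher and 4 lower at an unadjusted p under 0.05; 1 higher and 7 lower without OT-1 replicate 1). Ahnak, a giant scaffold protein that binds the complex of S100a10 and Anxa2, was named after its values were seen. Of its 4 probe sets, 1428058_at had the largest difference and stood at -0.15, -0.19 and -0.84 on CD8aa Treg replicates 1, 2 and 4, against 0.15, 1.83 and 1.89 on OT-1 replicates 1, 2 and 3 (difference -1.69 ± 0.56, adjusted p = 0.237; without OT-1 replicate 1 -2.26, adjusted p = 0.0173). The others differed by -1.56, -0.11 and 0.004 (adjusted p = 0.34, 0.806 and 0.942), with overlapping groups. Of 41 probe sets of 18 genes of effector T cells, most of them cytoskeletal or membrane genes, 1 was higher and 0 were lower (2 higher and 7 lower at an unadjusted p under 0.05; 3 higher and 8 lower without OT-1 replicate 1). The one that passed was of Id2, an inhibitor of E protein transcription factors, on 1422537_a_at, at 0.54, 0.38 and 0.25 on CD8aa Treg replicates 1, 2 and 4, against -0.25, -0.49 and -0.68 on OT-1 replicates 1, 2 and 3. Its difference was 0.86 ± 0.14 (adjusted p = 0.0435), and its other probe sets did not pass at 0.55 and 0.47. The call held in 1 of the 6 fits that leave out 1 array, without OT-1 replicate 1 (the adjusted p reached 0.162 without OT-1 replicate 2). The call ended with the poly-A split in the model (0.64, adjusted p = 0.125). Of all 45037 probe sets, 4163 were higher and 3061 lower at an unadjusted p under 0.05, and 4.80% were higher and 5.80% lower without OT-1 replicate 1. The groups did not overlap in 2 higher and 9 lower of the 41 effector gene probe sets, and in 3 and 3 of the 45 partner ones. Over all it was 11.7% higher and 8.54% lower. The median difference was 0 over the partner probe sets and 0.004 over the effector gene probe sets, close to the 0.008 over all, but a median does not show these counts.

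For each member with a probe set that spanned at least 1, the genes with the most similar values over the 6 arrays were found by the root mean square difference to that probe set. For Anxa2 they were Gzmk, which encodes a granzyme, at 0.32, and Plac8, at 0.83, with group differences of -8.65 and -9.53. For S100a6 they were Uck2 (0.04), a uridine and cytidine kinase gene, and Cotl1 (0.05), which encodes an actin-binding protein. For S100a10 they were Eif1ax (0.05) and Hdgfl2 (0.09), and for Lgals3 Itga4 (0.08), an integrin chain, and Tpd52 (0.08). For Anxa1 they were Lmf1 (0.04) and Tcn2 (0.12), which likewise did not pass between the groups (adjusted p = 0.676 and 0.601). For Anxa6 they were Hectd3 (0.08) and 2610005L07Rik (0.08). How close the nearest gene of any other probe set lies was not measured.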

How the data were processed

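RNA of 6 samples was measured on 45101 probe sets. Per the labels' protocols it was extracted with an RNeasy kit, amplified with the Ovation system and biotin-labelled. The deposited values were made with RMA, per the submitters' processing notes, which give no version. They were taken as log2 values deposited by the authors, although the base is not given in the sources used here. Each probe set's median over the arrays lay within 5e-07 of 0, so probe sets had been centred, and 34.4% of those tested spanned less than 0.1. RMA draws dim probe sets together, so differences that reach background are understated.

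The 64 array controls were left out of the tests. The array's annotation gave 1 symbol for 34945 probe sets and several for 932, and did not list 9160. RefSeq (GRCm38.p6) held the gene identifiers of 34741 and changed 0 symbols. Every probe set was fitted with lmFit and eBayes of limma 3.58.1 (R 4.3.3, two-sided, 0.875 prior degrees of freedom), adjusted by Benjamini-Hochberg over 45037, and passed at an adjusted p under 0.05. The fit was tested on simulated data. Intervals are 95% and unadjusted for multiple tests.

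The members and lists were chosen with earlier results of these data known. All member probe sets are named. Of the other lists, genes with a probe set that passed (up to 6, by size) and a few preset ones are named, with exceptions stated. The 19 alternatives include fits without 1 array, a block for the replicate number, a term for the arrays' split by their poly-A spike-ins (the poly-A split), other scalings, variances and thresholds, and values per gene. The number of arrays limits the precision.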

Additional observations from a re-analysis of the deposited data

How the results depend on the processing

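Of 303 values of member probe sets under the alternatives per probe set, 257 stayed on the same side of the threshold, 32 lost a call, 13 gained one and 1 turned. Only a probe set called in the main fit can lose a call, and most of the 257 were of probe sets not called there. Anxa2 1419091_a_at and S100a10 1439348_at lost the call only with the replicate block. S100a6, S100a4 and Anxa6 1429247_at lost it under many alternatives. The value that turned was of Lgals1 1419573_a_at, which stood at 0.32 with the poly-A split in the model. Counting that one, 31 values in 9 probe sets that were not called in the main fit changed sign, with sizes up to 0.49. Leaving out 1 array gave 1 to 3 member probe sets higher and 1 to 5 lower, and 390 to 2160 higher and 421 to 2613 lower over all, the highest without OT-1 replicate 1. Member counts, higher and lower, were 0 and 0 with the replicate block, 5 and 2 with the poly-A split, 5 and 6 with array weights, and 1 and 1 with ordinary variances, at an adjusted p under 0.01 and at 2-fold or more. Over all probe sets the replicate block gave 87 and 142, array weights 9471 and 7748, ordinary variances 329 and 411, an adjusted p under 0.01 259 and 353, and 2-fold or more 454 and 590. The poly-A split gave 1539 lower, and probe sets spanning at least 0.1 gave 1584 higher. Per gene, the mean gave 600 and 614 and the widest probe set 489 and 547 of 18193. The estimate of array weights stopped before it converged. The replicate numbers 1 and 2 are shared, and same-numbered arrays deviated together at r = -0.03 and 0.21. For CD8aa Treg replicate 1 with OT-1 replicate 2 it was -0.05, and for CD8aa Treg replicate 2 with OT-1 replicate 1 it was -0.18. So few values cannot settle if the arrays are pairs, and the numbers were not taken as pairs in the main fit. The block leaves 1 residual degree of freedom, and with it Anxa2 1419091_a_at stood at -7.81 (adjusted p = 0.0881) and S100a10 1439348_at at 0.99 (adjusted p = 0.0938). A filter on level and a background correction could not be run on centred values.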
